A study of Homo sapiens with 16 samples.

Results

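Of the 74404 intervals in the deposited count matrix, 411 lay on repeated ribosomal DNA or on assembly sequences without a place on a chromosome, and these are described here. They were chosen by position alone: every interval on a sequence other than chromosomes 1 to 22, X, Y and M, and every chromosome 21 interval between 8200000 and 8500000 of the human build hg38. No measured value is used in that rule, but the members were chosen with earlier results of these data known. The 411 comprise 131 intervals on sequences that carry ribosomal DNA (67 on chromosome 21, 34 on chr22_KI270733v1_random and 30 on chrUn_GL000220v1), 178 on 27 other unlocalised contigs, which are assigned to a chromosome but not to a position, and 102 on 29 other unplaced contigs, which are assigned to no chromosome.

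The 16 libraries are CUT&Tag, in which an antibody directs a transposase to cut and tag the DNA beside its target inside nuclei. HEK293, a human embryonic kidney cell line, carried the genotype eGFP-YAP in all groups. Each group was 1 of 4 antibodies in 1 of 2 treatments, with 2 replicates. The antibodies were against CTCF, a zinc finger protein that binds insulators and loop anchors; RAD21, a subunit of the cohesin ring; GFP, which reads the tagged transcriptional coactivator YAP1; and H3K27ac, a histone acetylation of active promoters and enhancers. Treated cells received 200 mM sorbitol for 1 h, which raises the osmolarity of the medium, and the controls received vehicle. The series' design text also has the cells starved of serum before the sorbitol. The matrix names its vehicle columns as time 0, so time in culture and sorbitol cannot be told apart. Whether the replicates came from separate cultures is not given in the sources used here, so p-values measure only the spread between these libraries, which may be technical. Transcripts were not measured here, so the cell line was not checked against expression markers, and no control antibody without a target is among these 16.

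Ribosomal DNA is the template for 18S, 5.8S and 28S ribosomal RNA. It lies in long tandem arrays on the short arms of the acrocentric chromosomes, and the nucleolus forms around those arrays. RNA polymerase I transcribes each repeat into a single 45S precursor, starting at a promoter that UBF and the SL1 complex bind; an intergenic spacer separates each transcribed region from the next promoter. TTF1 stops transcription at a group of Sal boxes past the 28S gene and also binds a related site just before the promoter. Because the copies are nearly identical, a read from any of them fits several places in the assembly. How such reads were assigned is not given in the sources used here. The members of this group are therefore not independent: copies of one position share their reads. In such counts, more cut fragments per copy and more copies reached by the transposase cannot be told apart.

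The stretches on which the results turn are printed from hg38, plus strand, 5′ to 3′. Lower case is plain sequence and capitals mark a match. The first, chr21:8388835-8389074, runs from 200 bases before the 45S start to 39 bases after it. The capitals are a Sal box match with 1 mismatch (C5T, positions counted from 1 at the 5′ end of GGGTCGACCAG) at -176. The Sal box letters were read from the second, as the commonest setting of the SalI site GTCGAC in it. The second, chr21:8402496-8402743, is the interval just past the transcribed region, with 3 Sal box matches that begin 13522, 13618 and 13675 bases from the 45S start; the one at 13522 carries A10G and the others are exact. The third, chr21:8418422-8418621, is the middle of the spacer position at 29.5 kb, the single place in the repeat that fell with every antibody. That holds for the main test only, since the falls with RAD21, YAP1 and H3K27ac were not called under some other settings.
45S promoter: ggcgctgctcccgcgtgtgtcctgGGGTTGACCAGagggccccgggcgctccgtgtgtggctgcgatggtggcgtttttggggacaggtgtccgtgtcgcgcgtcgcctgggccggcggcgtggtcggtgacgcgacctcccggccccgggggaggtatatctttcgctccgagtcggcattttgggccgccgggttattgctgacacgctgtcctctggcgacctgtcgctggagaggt
terminator: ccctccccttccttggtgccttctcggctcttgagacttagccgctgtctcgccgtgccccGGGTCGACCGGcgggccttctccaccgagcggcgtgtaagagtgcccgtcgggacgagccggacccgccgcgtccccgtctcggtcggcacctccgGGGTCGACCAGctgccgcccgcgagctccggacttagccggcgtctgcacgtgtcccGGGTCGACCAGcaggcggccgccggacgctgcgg
spacer at 29.5 kb: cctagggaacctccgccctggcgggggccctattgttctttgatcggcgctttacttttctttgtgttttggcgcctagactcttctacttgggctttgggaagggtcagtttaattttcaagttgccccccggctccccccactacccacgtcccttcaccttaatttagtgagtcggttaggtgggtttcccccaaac

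Contig intervals had other sequence. In chrUn_KI270438v1:109778-109927, a stretch of the GGAAT repeat family known from satellite DNA, the capitals mark 10 copies of GGAATG. Another, chrUn_KI270467v1:2777-2926, is 24% GC and represents a set of AT-rich contigs.
GGAAT repeat: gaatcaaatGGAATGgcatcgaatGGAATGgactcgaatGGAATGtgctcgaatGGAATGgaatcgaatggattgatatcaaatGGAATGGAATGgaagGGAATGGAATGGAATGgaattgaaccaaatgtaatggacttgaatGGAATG
AT-rich contig: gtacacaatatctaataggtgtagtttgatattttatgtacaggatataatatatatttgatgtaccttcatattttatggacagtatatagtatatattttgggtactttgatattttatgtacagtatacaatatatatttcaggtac

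Motifs were searched on both strands. The exact Sal box GGGTCGACCAG occurred in 7 members, all in the spacer at 13.6 and 14.3 kb, and in 21 of all 74404 intervals (0.0282%). In windows of equal length (200 bp at each interval's centre) it was in 7.69% of spacer intervals and 0.0134% of all intervals. A tandem pair of GGAAT was in 15% of the contig windows outside the ribosomal sequences against 0.274% of all windows; it contains the shorter GGAATG, found in 21.8% and 9.98%. The CTCF core, allowing at most 1 mismatch, was in 8.57% of contig windows, 36.4% of the 11 windows at the 45S start, none of the 52 spacer or 53 transcribed windows, and 13.1% of all windows. The ribosomal windows are copies of a few positions. Their shares, the 7.69% for the Sal box included, therefore count the same sites repeatedly and do not measure enrichment.

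The libraries held 1187939 to 8842656 counts, and 508751 to 8590592 after the members, the YAP1 gene, Y and M were set aside; CPM here is 1000000 times a count over the latter total. A count of 3 was then worth 0.349 to 5.90 CPM. Mitochondrial intervals took 1.95% to 57.8% of a library, and with CTCF, RAD21 and YAP1 more in both sorbitol libraries than in either vehicle library. The members took 1.44% and 1.41% of the CTCF counts in vehicle and 4.34% and 4.08% in sorbitol. For RAD21 the shares went from 1.17% and 1.12% to 2.29% and 2.18%, and for YAP1 from 0.782% and 0.754% to 1.23% and 1.22%. With H3K27ac they were 0.396% and 0.385% in vehicle and 0.392% and 0.430% in sorbitol, which overlap.

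Ribosomal DNA counts were higher after sorbitol with all 4 antibodies, and the increase lay over the 45S start and the transcribed region. All 131 intervals together rose 5.24-fold with CTCF (14143 and 14891 CPM in vehicle, 77945 and 74077 in sorbitol). The sum rose 2.91-fold with RAD21 and 3.24-fold with YAP1. With H3K27ac it rose 1.40-fold, from 1932 and 1839 to 2463 and 2832 CPM. Both sorbitol libraries were above both vehicle libraries in each case. These sums have no test of their own, and their size moves with the scaling. The H3K27ac sum, a log2 change of 0.49, was 0.025 with GC-corrected offsets and 0.082 under scaling to the weakest 25% of intervals, so its rise depends on the scaling.

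Each interval was tested with edgeR's quasi-likelihood test, and a call is an adjusted p under 0.05 over all intervals tested with that antibody. With CTCF, 192 of the 317 members tested rose and 40 fell, beside 12.5% higher and 31.2% lower (43.7% in either direction) among all 37924 tested. With RAD21, 80 of 210 rose and 7 fell, beside 2.4% and 1.96% (4.36%) of 15090. With YAP1, 142 of 254 rose and 12 fell, beside 3.39% and 18.1% (21.5%) of 21718. With H3K27ac, 100 of 283 rose and 35 fell, beside 14.2% and 10.4% (24.7%) of 56601. The median log2 fold change of everything tested was -0.38, -0.15, -0.64 and 0.16 for CTCF, RAD21, YAP1 and H3K27ac, against which the members' values can be read. Scaling to the total count gave 170 higher and 70 lower members for CTCF and 94 higher and 30 lower for YAP1. Scaling to the weakest 25% of intervals gave 57 higher and 49 lower for H3K27ac. Calls were shared: 68 members rose with every antibody, of which 48 lay in the transcribed region and 11 at the 45S start. The 5 members that fell with every antibody were the 5 copies of 1 spacer position. 18 members were too low to be tested with any antibody.

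**Figure D1:**
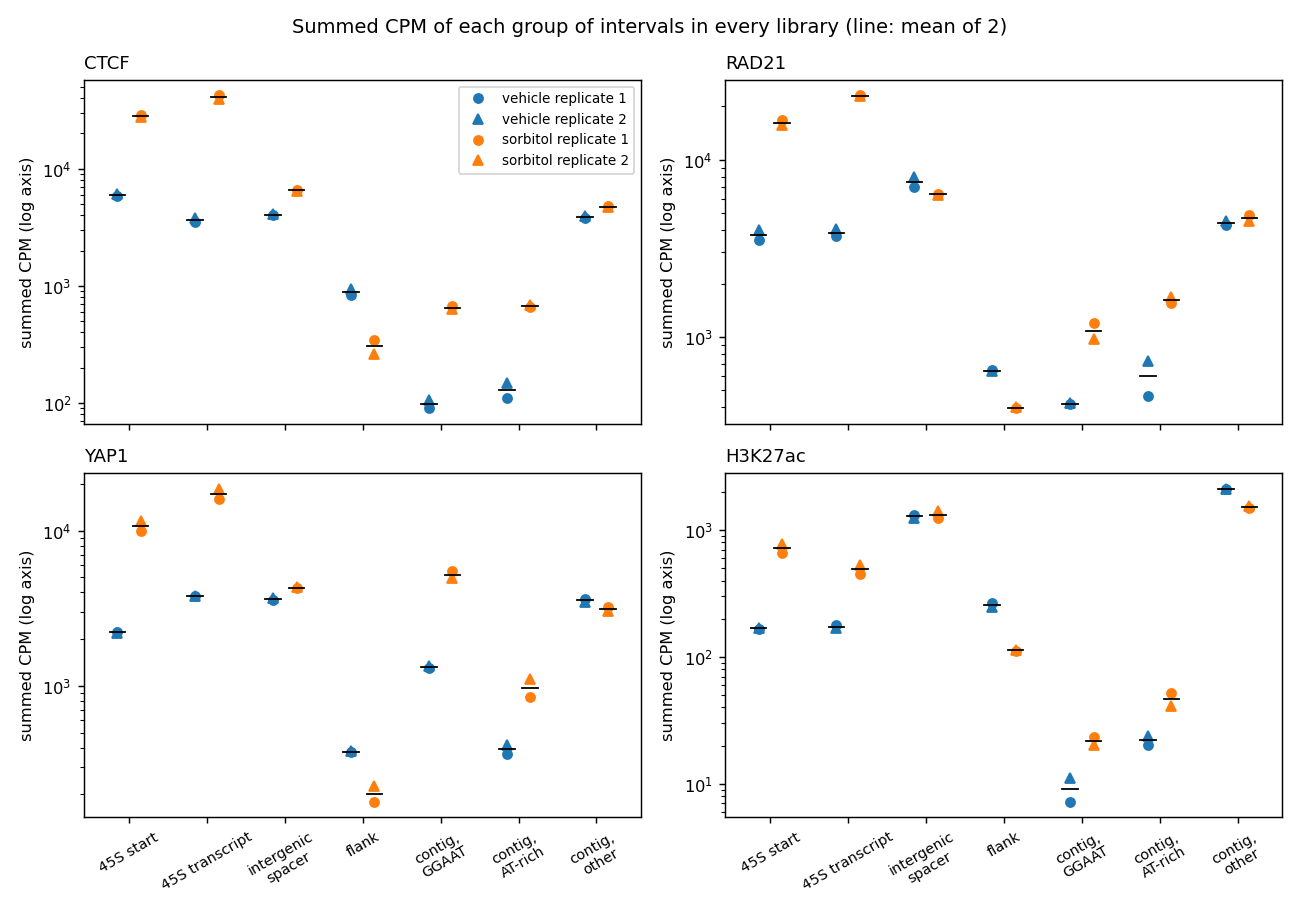
Summed CPM (log axis) of 7 groups of intervals in every library, 1 panel per antibody, with circles and triangles for replicates 1 and 2 and a line at the mean. The 45S transcript with CTCF goes from 3512 and 3795 CPM in vehicle to 42248 and 39632 in sorbitol, and the flank falls in every panel.

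At the 45S start, where the promoter lies, all 11 intervals within 1000 bp of a start rose with each antibody. Their summed CTCF signal was 5812 and 6059 CPM in vehicle and 28785 and 27710 in sorbitol, 4.76-fold higher. RAD21 went from 3532 and 4023 CPM to 16705 and 15691 (4.29-fold). YAP1 went from 2234 and 2194 to 9996 and 11510 (4.86-fold). H3K27ac went from 166 and 170 to 662 and 777 (4.29-fold). The fold was about as large with H3K27ac although the level was far lower. In vehicle the median H3K27ac density of the 11 was 7.06 CPM per kb, slightly below the median of all intervals. In sorbitol it was 32.2 CPM per kb, against 9.11 for all intervals. The H3K27ac rise therefore started from a level no higher than that of a typical interval. Median log2 fold changes of the 11 were 2.21, 2.12, 2.28 and 2.06 with CTCF, RAD21, YAP1 and H3K27ac. The highest adjusted p among the 11 was 2.8e-10 with CTCF, 0.00073 with RAD21, 3.2e-07 with YAP1 and 1.7e-09 with H3K27ac (edgeR's quasi-likelihood test). These calls held under every alternative setting tried, with 11 of 11 intervals higher each time.

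The 3 most heavily covered members were such intervals. At chr22_KI270733v1_random:120997-123845, CTCF was 749.6 and 817 CPM in vehicle and 3685 and 3549 in sorbitol, with a log2 fold change of 2.21 (SE 0.13). The intervals chr21:8204708-8207569 and chr21:8387807-8390658 gave 2.13 and 2.17 with CTCF and 2.00 and 1.98 with H3K27ac. These 3 are copies of 1 sequence and not separate observations. Of the 11, 7 hold a match to the CTCF core with 1 mismatch, a change of A6C; the other 4 hold none and rose as well.

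Just inside the transcript the CTCF increase was steeper. The chromosome 21 interval centred 1.15 kb past the start at 8433222 lies within the 5′ external transcribed spacer. It had 434 and 292 CTCF counts in vehicle and 1987 and 1973 in sorbitol. That is 121 and 119 CPM against 1355 and 1307, or 3.47 in log2 with an SE of 0.12 (edgeR adjusted p 3.1e-15). It had the second largest H3K27ac rise of all members, from 28 and 17 counts to 190 and 178 (2.68, SE 0.24). Its copy at chrUn_GL000220v1:106149-107053 had the largest RAD21 rise, from 92.4 and 114 CPM to 764 and 816 (2.95, SE 0.23). All these values stand clear of the spread between replicates.

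Across the transcribed region, all 53 intervals rose with CTCF, RAD21 and YAP1, and 48 of 53 rose with H3K27ac. All 53 passed the count filter with each antibody. The region covers the external and internal transcribed spacers, which are cut away during processing, and the mature 18S, 5.8S and 28S sequences. Of the 53 intervals, 35 lay in 28S and none in the first internal or the 3′ external transcribed spacer. Summed CTCF went from 3512 and 3795 CPM to 42248 and 39632 (11.2-fold), summed RAD21 from 3687 and 4063 to 23092 and 22939 (5.94-fold), and summed YAP1 from 3797 and 3821 to 15937 and 18627 (4.54-fold). Summed H3K27ac was 178 and 170 CPM in vehicle and 449 and 535 in sorbitol (2.83-fold). Its median density over the 53 was 6.19 CPM per kb in vehicle, also below the median of all intervals, and 17.1 in sorbitol. Median log2 fold changes of the 53 were 3.50, 2.62, 2.19 and 1.47 with CTCF, RAD21, YAP1 and H3K27ac. The 48 H3K27ac calls fell to 27 with DESeq2 and to 28 without sorbitol replicate 2; 15 of 15 were called where the mean was at least 50 counts.

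The parts of the transcript had CTCF medians between 3.45 and 3.99. Medians were 3.51 over 6 intervals in the 5′ external transcribed spacer, 3.45 over 7 in 18S, 3.81 over 2 at 5.8S, 3.99 over 3 in the second internal transcribed spacer and 3.49 over 35 in 28S. The 5 intervals at 5.8S and in the second internal spacer (3.78 to 4.10) lay above the 7 in 18S (3.38 to 3.50). The differences between these parts were not tested. With YAP1 the interval chr22_KI270733v1_random:170048-170277, in the 5′ external transcribed spacer, rose most of these (18 and 39 counts in vehicle, 96 and 99 in sorbitol, log2 fold change 3.08, SE 0.33). In 28S, chr21:8216545-8216956 gave 3.87 (SE 0.13) with CTCF and 2.88 (SE 0.26) with RAD21. The H3K27ac median was 2.02 in the 5′ external transcribed spacer and 1.41 in 28S; that difference was not tested.

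**Figure D2:**
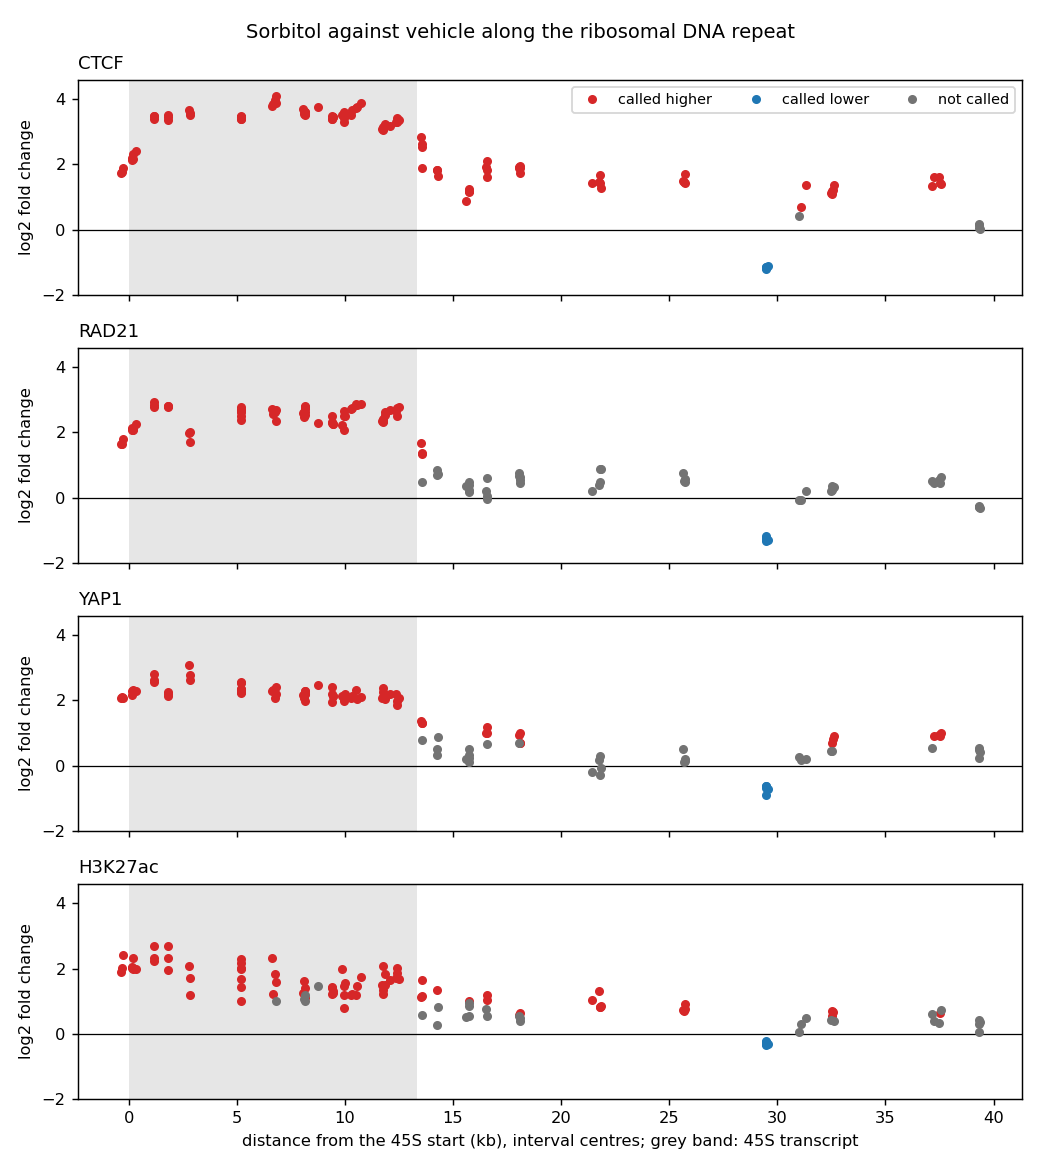
Log2 fold change, sorbitol against vehicle, of the 116 intervals placed on the repeat, against the distance of their centres from the 45S start in kb. Red is called higher, blue called lower and grey not called; the grey band is the 45S transcript. The CTCF points are near 3.5 inside the band, step down past its end, and fall below 0 at 29.5 kb.

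Position along the repeat gave the profile its shape. Copies were merged into 28 positions of a 44187-bp repeat, measured between the starts at 8389035 and 8433222 of chromosome 21. With CTCF the median was 1.75 at -0.30 kb, before the start, 2.21 at 0.20 kb and 3.47 at 1.17 kb, and it stayed between 3.19 and 3.90 as far as 12.0 kb. Past the transcript, which is 13309 bases long, it was 2.59 at 13.6 kb, 1.82 at 14.3 kb and 1.17 at 15.7 kb. The Sal box sequence shown above as the terminator lies at the first of these steps. RAD21 dropped from 2.55 at 12.0 kb to 1.35 and 0.73 at the same pair of positions past the end, and YAP1 from 2.11 to 1.31 and 0.52. Copies of a position had similar densities: the median ratio of the highest to the lowest density among copies was 1.27 with CTCF, 1.25 with RAD21, 1.36 with YAP1 and 1.54 with H3K27ac, over 23 positions.

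**Figure D3:**
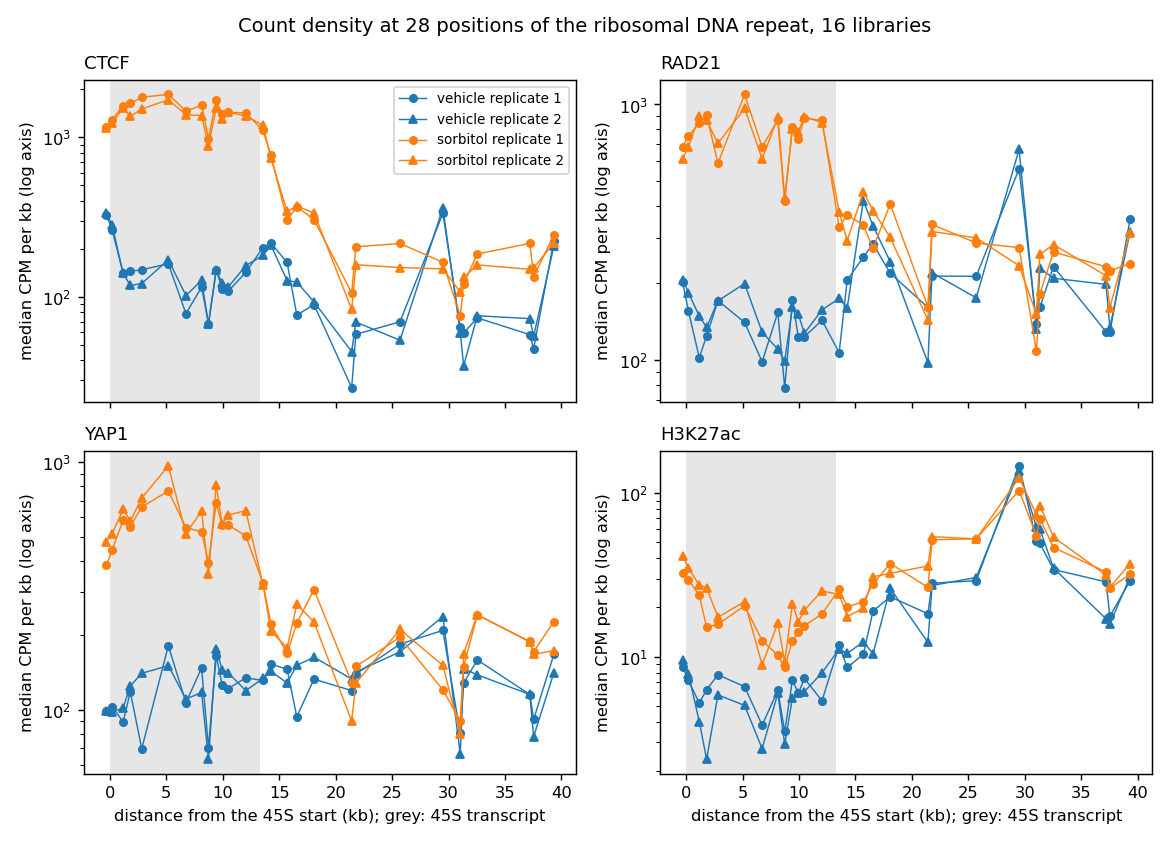
Median CPM per kb (log axis) at the 28 positions of the repeat, against the distance from the 45S start, with vehicle in blue and sorbitol in orange and a separate line for each replicate. With CTCF the sorbitol lines lie above the vehicle lines along the transcript and cross below them at 29.5 kb.

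The intergenic spacer changed less. Its 52 intervals gave 42 higher and 5 lower with CTCF (median 1.42), 3 and 5 with RAD21 (0.42), 17 and 5 with YAP1 (0.49), and 22 and 5 with H3K27ac (0.60). The summed spacer signal was 1.61-fold higher with CTCF and 1.18-fold higher with YAP1. With RAD21 it was 7060 and 7940 CPM in vehicle and 6425 and 6341 in sorbitol (0.851-fold), and with H3K27ac the groups overlapped (1.03-fold). These sums include the 5 copies at 29.5 kb, which fell. Over the other 47 intervals they were 3.05-fold, 1.34-fold, 1.56-fold and 1.53-fold higher with CTCF, RAD21, YAP1 and H3K27ac. The YAP1 count is unstable: 1 interval was higher without vehicle replicate 1, 3 without vehicle replicate 2, 1 under total count scaling, where the median was -0.28, and 32 with DESeq2. RAD21 gave 23 higher under scaling to the weakest 25% of intervals, and H3K27ac gave 14 and 13 higher without sorbitol replicates 1 and 2, and 6 with DESeq2.

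A ratio inside a library needs no scaling. Transcribed counts divided by spacer counts were 0.880 and 0.926 in the CTCF vehicle libraries and 6.43 and 6.13 in the sorbitol libraries. For RAD21 the ratio went from 0.522 and 0.512 to 3.59 and 3.62. For YAP1 it went from 1.06 and 1.04 to 3.76 and 4.27, and for H3K27ac from 0.135 and 0.136 to 0.362 and 0.380. With every antibody both sorbitol libraries lay above both vehicle libraries, which shows an unequal change and not that the spacer was unchanged. The position at 29.5 kb, described next, is part of the spacer counts. In vehicle it held 2156 and 2317 of 3991 and 4100 spacer CPM with CTCF, and 3639 and 4315 of 7060 and 7940 with RAD21. With YAP1 it held 1365 and 1498 of 3599 and 3667, and with H3K27ac 940 and 865 of 1321 and 1252. It fell after sorbitol, which raises the ratio, and the ratio without it was not computed. Over the other 47 spacer intervals the summed CPM rose 3.05-fold with CTCF, 1.34-fold with RAD21, 1.56-fold with YAP1 and 1.53-fold with H3K27ac. Transcribed sums rose more with each antibody, by 11.2-fold, 5.94-fold, 4.54-fold and 2.83-fold in the same order.

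The 5 copies of the position at 29.5 kb went the other way. In vehicle this was the densest part of the spacer: 348 CPM per kb with CTCF against a median of 82.5 in the other 47 spacer intervals, 611 against 220 with RAD21, 225 against 143 with YAP1 and 142 against 23.7 with H3K27ac. After sorbitol the summed CPM of the 5 was 0.447 of vehicle with CTCF (2156 and 2317 falling to 1053 and 946). It was 0.417 of vehicle with RAD21 (3639 and 4315 to 1803 and 1510), and 0.611 with YAP1 (1365 and 1498 to 759 and 989). With H3K27ac it was 940 and 865 CPM in vehicle and 669 and 802 in sorbitol (0.815). The median YAP1 log2 fold change of the 5, -0.69, was near the -0.64 of all intervals tested with YAP1. Over the other 47 spacer intervals the sums were 3.05-fold, 1.34-fold, 1.56-fold and 1.53-fold higher, and none was called lower with any antibody.

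One of the copies, chr21:8235432-8236776, had 1614 and 1193 CTCF counts in vehicle and 320 and 283 in sorbitol, a log2 fold change of -1.20 (SE 0.12). With RAD21 it was -1.33 (SE 0.21), the second largest called RAD21 fall. Adjusted p-values over the 5 (edgeR) ran from 1.1e-07 to 5.1e-07 with CTCF, 0.0046 to 0.012 with RAD21, 0.0028 to 0.026 with YAP1 and 0.00048 to 0.025 with H3K27ac. The CTCF fall kept 5 of 5 calls under every alternative. The others did not: YAP1 kept none under TMM scaling, DESeq2 size factors, DESeq2, the weakest 25% or without vehicle replicate 2, and 1 without vehicle replicate 1. RAD21 kept none under the weakest 25% or without sorbitol replicate 2, and 1 under DESeq2 size factors or without sorbitol replicate 1. H3K27ac kept none in a fit of all 16 libraries or without sorbitol replicate 1, and 3 without vehicle replicate 1. No CTCF core match with fewer than 3 mismatches, Sal box or GGAATG was found in these copies, which says only that those letters are not in the intervals.

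Outside the repeat unit but on the same sequences lay 15 flanking intervals, and none of them rose with any antibody. CTCF fell in 7 of the 9 tested (median -0.72), RAD21 in 2 of 6 (-1.06), YAP1 in 2 of 6 (-0.52) and H3K27ac in 8 of 15 (-1.10). Of all intervals tested, 31.2%, 1.96%, 18.1% and 10.4% fell, with medians of -0.38, -0.15, -0.64 and 0.16. The YAP1 median of the flank was therefore not below that of all intervals. Summed over all 15, CTCF was 827 and 938 CPM in vehicle and 344 and 264 in sorbitol, 2.90-fold lower; the sums were 1.62-fold, 1.86-fold and 2.29-fold lower with RAD21, YAP1 and H3K27ac. The interval chr22_KI270733v1_random:109743-110846 went from 791 and 652 CTCF counts to 95 and 55 (log2 fold change -2.26, SE 0.18). It had the largest called RAD21 fall (-1.47, SE 0.30, adjusted p 0.018) and an H3K27ac change of -1.27 (SE 0.21). CTCF called 4 without either vehicle library, and H3K27ac 5 without vehicle replicate 1 or sorbitol replicate 1. The RAD21 calls were 0 with GC-corrected offsets and with the weakest 25%. The YAP1 median turned to 0.10 under TMM scaling, 0.12 with DESeq2 and 0.04 under the weakest 25%.

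The test of the difference between antibodies used 8 libraries at a time. RAD21 rose less than CTCF at 22 members and more at none, beside 0.426% and 0.14% (0.566% in either direction) of all 40618 tested. The count of 22 ranged from 4 to 48 over the alternatives. Of the 22, 12 were transcribed, 5 spacer and none at the 45S start. YAP1 was below CTCF at 87 members and above at 8, beside 9.3% and 3.14% (12.4%); 50 of the 53 transcribed intervals were below, with a median difference of -1.29 log2 units, and 2 of 11 at the 45S start. H3K27ac was below CTCF at 108 members and above at 28, beside 7.56% and 14.9% (22.4%); 48 of the 53 transcribed intervals were below, with a median of -2.0. At the 45S start H3K27ac was below CTCF at 3 of the 11 intervals and above at 1. There the median differences were -0.11, 0.05 and -0.15; the 2 regions were not tested against each other. With GC-corrected offsets YAP1 was above CTCF at 8 and H3K27ac at 7 of the 11, with none below, and RAD21 was below at none of the transcribed intervals.

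Other measures moved with these results. Mitochondrial DNA, which no antibody here targets by design, gave 9 of 9 intervals higher with CTCF (median 1.52, summed 2.78-fold) and with YAP1 (1.43, 2.61-fold), none called with RAD21 (0.81, 1.60-fold), and 3 higher and 1 lower with H3K27ac (0.04, 0.959-fold). Placed intervals of 70% GC or more, a composition near the 74% of the 45S start intervals, had medians of 0.49, 0.21, -0.60 and -0.16. The part of mitochondrial reads and of GC content in the result was not tested, beyond the fit with GC-corrected offsets. There all 11 intervals at the 45S start stayed higher with every antibody, with the CTCF median at 1.45 in place of 2.21, and 53, 52, 53 and 48 of 53 transcribed intervals stayed higher with CTCF, RAD21, YAP1 and H3K27ac. The log2 change of the whole ribosomal sum went from 2.39 to 1.97 with CTCF and from 0.49 to 0.025 with H3K27ac, whose calls in the spacer fell to 10 higher. Summed counts in the YAP1 gene were higher too: 4.10-fold with CTCF, 1.58-fold with RAD21 and 1.88-fold with YAP1, against 0.964-fold with H3K27ac. Their part in the result was not tested. The 5S ribosomal RNA genes on chromosome 1, which RNA polymerase III transcribes, did not follow the 45S pattern. Of their 33 intervals, 33 rose with CTCF (median 1.36), 1 with RAD21 (0.45) and none with YAP1 (-0.04), and 33 fell with H3K27ac (-1.20). Start sites of 24 genes for polymerase I subunits and factors and nucleolar proteins gave 6 higher and 3 lower of 32 tested with CTCF, 0 and 1 of 21 with RAD21, 0 and 11 of 29 with YAP1, and 11 and 7 of 40 with H3K27ac. In either direction that is 28.1%, 4.76%, 37.9% and 45%, beside 43.7%, 4.36%, 21.5% and 24.7% of all intervals tested.

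The 280 contig intervals off the ribosomal sequences were sorted by their own sequence, after their values had been seen: 42 on 13 contigs held GGAAT as a tandem pair, 8 on 5 contigs were under 30% GC, and 230 on 43 contigs were neither.

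GGAAT repeat intervals held the most CPM with YAP1. Over all 42, summed YAP1 was 1299 and 1334 CPM in vehicle and 5475 and 4935 in sorbitol (3.95-fold). CTCF went from 89.7 and 106 to 667 and 632 (6.65-fold), RAD21 from 419 and 421 to 1197 and 973 (2.59-fold) and H3K27ac from 7.22 and 11 to 23.5 and 20.3 (2.40-fold). Each sorbitol library was above each vehicle library. The filter passed 21, 8, 39 and 3 of them with CTCF, RAD21, YAP1 and H3K27ac, and 21, 3, 34 and 2 were called higher, none lower. An interval low in vehicle passes only through its sorbitol counts, so these counts are given as a description only. The widest of these intervals, chrUn_KI270438v1:109124-110582, from which the sequence above was taken, went from 539 and 444 YAP1 counts to 1029 and 648, or 276 and 270.1 CPM to 1300 and 999 (log2 fold change 2.07, SE 0.16, adjusted p 2.1e-07). With CTCF it was 2.78 (SE 0.18). The interval chr17_KI270729v1_random:3366-3770 rose by 1.77 (SE 0.17) with YAP1 and 3.44 (SE 0.35) with CTCF. The largest YAP1 rise, at chr22_KI270736v1_random:157456-157655, rests on 6 and 1 counts in vehicle and 11 and 17 in sorbitol (3.30, SE 0.83).

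The same repeat also lies on placed chromosomes, where calls went both ways. Of 239 placed intervals with the GGAAT pair, 107 of 160 tested rose and 7 fell with YAP1 (median 1.69), and 77 of 141 rose and 29 fell with CTCF (1.67); 11 of 70 rose and 1 fell with RAD21, and 16 of 97 rose and 8 fell with H3K27ac. Without either YAP1 vehicle library, 22 and 21 of the contig repeat intervals were called with YAP1 in place of 34.

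The 8 AT-rich intervals rose with CTCF (8 of 8), RAD21 (7 of 7) and YAP1 (8 of 8), and 4 of 7 tested rose with H3K27ac. They lie on 5 contigs and may share reads, so they may not be 8 separate observations. The closest placed match of chrUn_KI270336v1:671-1026 lies inside that of chrUn_KI270467v1:1955-3749, on chromosome 4. Summed CTCF went from 110 and 149 CPM to 654 and 682 (5.16-fold), RAD21 from 465 and 732 to 1553 and 1685 (2.70-fold), YAP1 from 364 and 417 to 845 and 1103 (2.49-fold) and H3K27ac from 20.3 and 23.8 to 51.9 and 41.2 (2.11-fold). The most covered, chrUn_KI270467v1:1955-3749, gave log2 fold changes of 2.43 (SE 0.15), 1.26 (SE 0.23), 1.22 (SE 0.17) and 1.04 (SE 0.20). At chrUn_KI270336v1:671-1026, H3K27ac counts were 0 and 4 in vehicle and 15 and 25 in sorbitol, the largest H3K27ac rise (2.92, SE 0.75). With GC-corrected offsets 8 of 8 stayed called with CTCF but 1 with RAD21, none with YAP1 (median 0.16) and 1 with H3K27ac, which also had 1 with DESeq2. Under total count scaling 2 remained with YAP1, and 3 and 4 without vehicle replicate 1 and 2. Placed intervals under 30% GC gave 18 higher and 10 lower of 45 with CTCF and 12 higher of 19 with YAP1.

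**Figure D4:**
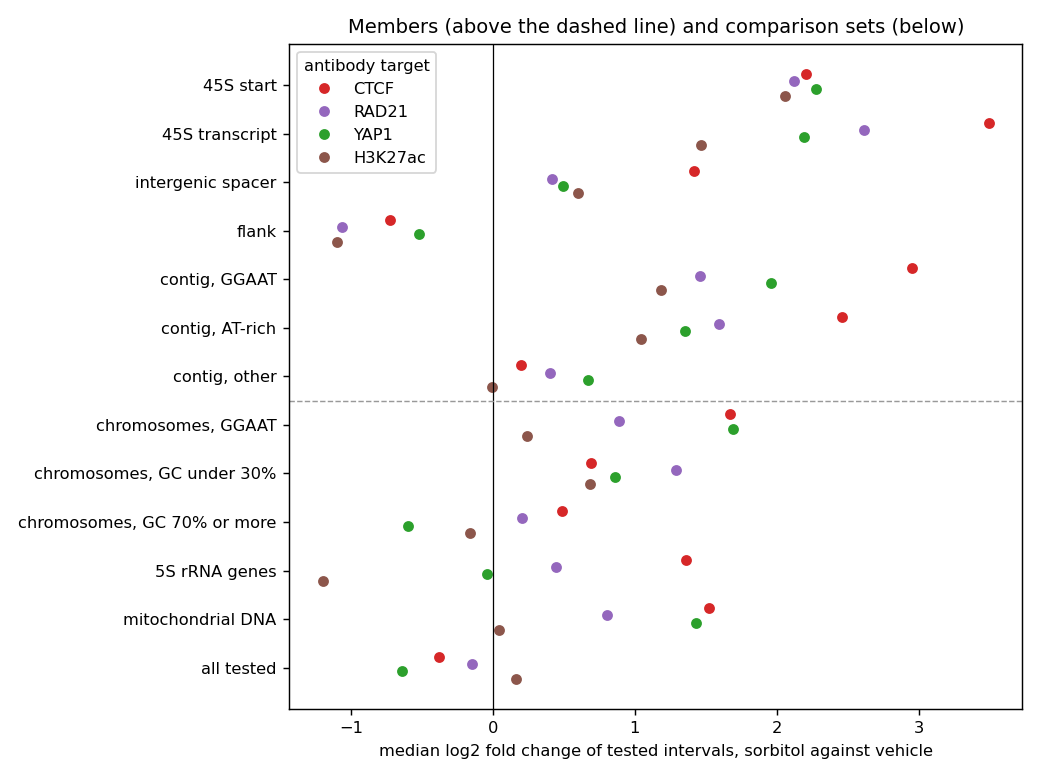
Median log2 fold change of the tested intervals in each group, with 1 colour per antibody; members are above the dashed line and comparison sets on placed or mitochondrial sequence below. The 45S transcript has the highest CTCF median (3.50), and the 5S genes have an H3K27ac median of -1.20.

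The other 230 contig intervals were called in both directions with CTCF, YAP1 and H3K27ac. The shares called in either direction were near those of all intervals tested for RAD21 and H3K27ac. CTCF called 57 higher and 28 lower of 163 tested, RAD21 3 and 0 of 73, YAP1 19 and 5 of 85, and H3K27ac 13 and 22 of 142. In either direction that is 52.1%, 4.11%, 28.2% and 24.6% of those tested, beside 43.7%, 4.36%, 21.5% and 24.7% of all intervals. Of all intervals, 12.5% rose and 31.2% fell with CTCF, and 2.4% and 1.96% with RAD21. With YAP1 these were 3.39% and 18.1%, and with H3K27ac 14.2% and 10.4%. With CTCF and YAP1 rises outnumbered falls here, and with H3K27ac falls outnumbered rises, each the reverse of all intervals. Summed over all 230, CTCF was 1.22-fold higher, RAD21 overlapped (1.07-fold), YAP1 was 0.878 of vehicle and H3K27ac 0.720. Under total count scaling the split was 42 higher and 52 lower with CTCF and 1 and 18 with YAP1, and without vehicle replicate 1 or 2 the YAP1 rises were 1 and 4. The CTCF falls were 18 without vehicle replicate 1 and 15 with DESeq2, and the H3K27ac rises 7 to 10 without 1 library and 5 with DESeq2. The 33 of these that hold a CTCF core gave 3 higher and 10 lower of 29 with CTCF (median -0.75), and the 197 without gave 54 and 18 of 134 (0.74). On placed chromosomes the medians were -0.74 with a core and -0.20 without.

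Most of these contigs copy chromosomal sequence. A placed interval of at least 95% identity was found in 146 pairs. Where both were tested with CTCF, both were called in the same direction in 38 of 101 pairs and in opposite directions in none. With H3K27ac the counts were 16 and none of 88, with YAP1 9 and none of 39, and with RAD21 2 and none of 34. In the remaining pairs at least 1 interval was not called. Fold changes had the same sign in 83 of 101 pairs with CTCF and 76 of 88 with H3K27ac. For YAP1 and RAD21 this held in 37 of 39 and 31 of 34. The median difference in log2 fold change within a pair was 0.25 to 0.33. Since near-identical copies can exchange reads, a pair is not a replicate.

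The 2 widest of the strongly covered contig intervals lost acetylation. At chr17_GL000205v2_random:86341-90098, H3K27ac fell from 507 and 504 CPM to 129 and 134 (log2 fold change -1.94, SE 0.06, adjusted p 2.5e-26), and YAP1 from 1157 and 1073 to 484 and 494 (-1.19, SE 0.14). CTCF was -0.43 (SE 0.11) and RAD21 -0.33 (SE 0.21, not called). At chrUn_GL000195v1:30237-33109, H3K27ac fell from 201 and 202 CPM to 44.7 and 49.4 (-2.10, SE 0.08, the largest H3K27ac fall of the members) and YAP1 from 469 and 451 to 177 and 191 (-1.32, SE 0.16). CTCF there was -0.38 (SE 0.13). Both CTCF falls changed sign under the weakest 25% scaling and GC-corrected offsets. The first YAP1 fall was not called under TMM scaling (-0.56).

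Named copies of known genes were among the falls. At chr1_KI270713v1_random:21578-22558, which is 98.1% identical to the placed U1 small nuclear RNA gene RNU1-1, YAP1 fell from 258 and 224 CPM to 72.0 and 81.7 (-1.65, SE 0.20, adjusted p 4e-05) and H3K27ac by -0.37 (SE 0.09). At chr11_KI270721v1_random:57217-58310, a full copy of a stretch in H19, an imprinted noncoding RNA, CTCF went from 195 and 146 counts to 4 and 7, the largest CTCF fall (-3.92, SE 0.35, adjusted p 2.2e-08). At chrUn_GL000218v1:96856-97831, a copy of TEKT4P2, YAP1 went from 46 and 40 counts to 2 and 7 (-1.90, SE 0.59, adjusted p 0.031), the largest YAP1 fall. That call was lost under 9 alternatives, TMM scaling (-1.28) and both vehicle libraries left out among them.

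The contig intervals with the 2 largest CTCF rises, and the one with the next largest fall after H19, had few counts in 1 of the treatments. At chr1_KI270712v1_random:105168-105390, CTCF had 0 and 0 counts in vehicle and 26 and 20 in sorbitol, at least 15.1-fold higher when vehicle is set to 3 counts per library. At chrUn_KI270748v1:80267-80473 the counts were 0 and 2 in vehicle and 21 and 30 in sorbitol, a fitted log2 fold change of 5.46 (SE 0.79). On the same contig, chrUn_KI270748v1:6460-6737 went from 40 and 38 counts to 2 and 2 (-3.24, SE 0.65).

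Another place on that contig held an array of CTCF core matches, picked out after its values were seen. The interval chrUn_KI270748v1:68001-69131 carries 10 matches spaced 68 bp apart. The stretch chrUn_KI270748v1:68339-68508 shows 3 of them, marked in capitals on the plus strand, each with 1 mismatch to the core of the reverse strand.
CTCF core array: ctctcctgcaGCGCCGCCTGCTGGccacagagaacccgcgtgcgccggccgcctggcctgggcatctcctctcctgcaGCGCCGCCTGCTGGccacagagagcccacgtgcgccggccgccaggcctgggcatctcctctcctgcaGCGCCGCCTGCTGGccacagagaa
CTCF there rose from 574 and 455 counts to 912 and 875, or 160 and 185 CPM to 622 and 579.8 (log2 fold change 1.80, SE 0.12, adjusted p 1.2e-10). RAD21 was 41 and 24 counts in vehicle and 8 and 3 in sorbitol (-1.82, SE 0.57, adjusted p 0.084), which was not called.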

How the data were processed

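The authors' deposited file holds raw counts, whole numbers of reads per interval for 74404 intervals shared by 16 CUT&Tag libraries; per the submitters' processing notes, Trim Galore, BWA 0.7.17, SAMtools, Picard, bedtools 2.31.1 and MACS2 2.2.6 were among the tools and hg38 was the build. How duplicates and multi-mapping reads were handled is not given in the sources used here, and both bear on repeated sequence. Samples were grouped by the antibody and treatment in the labels.

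Library sizes were the totals over chromosomes 1 to 22 and X without the YAP1 gene and the members. Intervals passing edgeR's filterByExpr (minimum 10 counts) were tested per antibody with edgeR 4.0.16 (R 4.3.3, robust quasi-likelihood, two-sided) and Benjamini-Hochberg adjustment over all tested intervals; interaction fits compared RAD21, YAP1 and H3K27ac with CTCF. A call is an adjusted p under 0.05. Standard errors were taken from the F statistic. The 45S start and the parts of the unit were placed with RefSeq gene coordinates on hg38 and BLAST+ 2.17.0, which also found placed copies; genes are from GENCODE 44, and sequences were read from hg38. Intervals within 250 bp on the unit were merged into 28 positions. Bounds set groups at 0 to 3 counts per library. The self-test on simulated counts recovered 86.9% of 4-fold and 20% of 2-fold changes for CTCF. For RAD21, YAP1 and H3K27ac it recovered 88.8%, 76.5% and 91.9% of 4-fold changes, and 17.6%, 18.9% and 38.9% of 2-fold changes. The simulation used the same fixed dispersion at every interval and changed few intervals, so these rates may not hold for the real libraries.

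Alternatives covered TMM (edgeR), total count, weakest-25% and DESeq2 size factor scaling, DESeq2 1.42.0 (local dispersion trend, set after seeing the data, since whether its default trend converged for H3K27ac depended on rounding), count filters, 1 fit on all libraries, a replicate block, GC-corrected offsets and leaving out each library. Named members are the 3 with the highest mean CPM in each class (ribosomal DNA, unlocalised, unplaced) and, per antibody, the 2 largest rises and falls among calls, plus 1 interval on chromosome 21; others are said to be chosen after their values were seen. The members and lists were chosen with earlier results of these data known. The contig sequence groups and comparison sets were added after seeing the data. No 2 libraries held identical counts.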

Additional observations from a re-analysis of the deposited data

Results flagged for a closer look

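With 2 libraries in each group no library could be tested as an outlier. Each of the 3 tests of a difference between antibodies called members. The response to sorbitol differed between RAD21 and CTCF at 22 members, all with RAD21 below CTCF. Between YAP1 and CTCF it differed at 95 members, 87 below and 8 above. Between H3K27ac and CTCF it differed at 136 members, 108 below and 28 above. Of the 53 transcribed ribosomal intervals, 12, 50 and 48 were below CTCF in the 3 tests; of the 11 at the 45S start, 0, 2 and 3 were below and 0, 0 and 1 above. In the flank, 4 of 9 tested intervals were above CTCF with YAP1.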

How the results depend on the processing

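The counts of called members stood at 232 (CTCF), 87 (RAD21), 154 (YAP1) and 135 (H3K27ac). Requiring a mean of at least 50 counts gave 146 for CTCF and 84 for H3K27ac, since fewer intervals are then tested, and DESeq2 with a local dispersion trend gave 79 for H3K27ac. Its default trend, where it converged, gave fewer still. Leaving out 1 library gave 197 to 230, 80 to 93, 97 to 153 and 93 to 113; the lone library left in a group is then assumed to vary like the other group. The YAP1 count was 97 without vehicle replicate 1 and 101 without vehicle replicate 2. The RAD21 minus CTCF count of 22 was 4 under total count scaling, 48 at a mean of at least 50 counts, 7 with GC-corrected offsets and 11 with the replicate block. The cause was not tested.

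The log2 change of the summed ribosomal DNA counts was 2.39 (CTCF), 1.54 (RAD21), 1.70 (YAP1) and 0.49 (H3K27ac). TMM scaling gave 2.73, 1.68, 2.34 and 0.35, DESeq2 size factors 2.72, 1.69, 2.35 and 0.35, and the weakest 25% 3.10, 2.11, 2.27 and 0.082. Total count scaling gave 1.81, 1.18 and 0.92 for CTCF, RAD21 and YAP1, and GC-corrected offsets 1.97, 1.44 and 0.025 for CTCF, RAD21 and H3K27ac. Leaving out 1 library gave 2.35 to 2.43, 1.47 to 1.62, 1.60 to 1.79 and 0.39 to 0.59. The median of all tested intervals moved with the scaling too, for YAP1 from -0.64 to -0.02 under TMM and -1.41 under total count, and for CTCF from -0.38 to -0.03 and -0.96.

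Among named intervals, CTCF at chr17_GL000205v2_random 86341 turned to 0.28 under the weakest 25%, 0.087 with GC-corrected offsets and 0.087 with these and the replicate block. At chrUn_GL000195v1 30237 the same settings gave 0.33, 0.023 and 0.026. YAP1 at chrUn_KI270467v1 1955 turned to -0.080 with GC-corrected offsets and -0.080 with the replicate block added, and at chr21 8235432 to 0.0011 with DESeq2.

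Deviations of same-numbered libraries from their group means correlated at -0.00931 to 0.00204 over the tested intervals. Many of these have low counts, so the correlation can miss a shared batch and does not settle whether replicate numbers pair the libraries. The mitochondrial share was higher in replicate 2 than in replicate 1 of every group, 19.95% against 15.67% for CTCF in vehicle. Whether that reflects a batch was not tested. With the replicate block 217, 86, 130 and 137 members were called. At a scaling total of 508751 counts in the shallowest RAD21 library, contig intervals under about 6 CPM (3 counts) cannot be seen; intervals and floors cover counting error only.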
